A study of Saccharomyces cerevisiae with 8 samples.

Results

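Gcr1(U) and Gcr1(S), the products of unspliced and of spliced GCR1 mRNA in budding yeast, were compared here by where and how strongly each was recovered from chromatin at 12 h of growth, after the diauxic shift. The data are the peaks of the ChIP-seq peak lists of each form at 12 h, matched on the same chromosome by an overlap of at least 1 bp. They make up 532 of the 1064 peaks in the series, 299 for Gcr1(U) and 233 for Gcr1(S). Both strains were in the BY4741 background. Strain JHY9311 carried GCR1U-TAP::his3MX6 and strain JHY9321 carried GCR1S-TAP::his3MX6, and both also carried GCR2-5Flag::hphMX6, a tagged form of the partner protein Gcr2. TAP is a tandem affinity tag, through which the protein and its cross-linked DNA were recovered on IgG-sepharose. Each form thus came from 1 named strain, and no strain with wild-type, untagged GCR1 was analysed here. Cultures grew from an OD600 of 0.5 in YPD with 2% glucose at 30 °C and were fixed with 1% formaldehyde for 25 min. The series has 8 samples in 4 groups of 2 replicates, both forms at 6 h and at 12 h. At each time there was 1 list per form, with no value per replicate, so nothing below has a replicate error. Neither an input nor an untagged control is part of the comparison, so background recovery was not measured.

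Gcr1 is the main transcriptional activator of the glycolytic genes in Saccharomyces cerevisiae and works at their promoters with Gcr2 and Rap1. Part of the GCR1 transcript escapes splicing, and translation from the retained intron gives a protein with a different amino end from that of the spliced message. At the diauxic shift the cells have used up glucose and turn from fermentation to respiration of ethanol, with lower demand for glycolytic flux and protein synthesis.

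The value compared is the normalized tag count, the number of reads in a peak's window scaled to library size. One unit stood for 1.42 tags in Gcr1(U) against 0.582 tags in Gcr1(S). The Gcr1(S) library was thus the shallower, and at an equal normalized value it carries the larger counting error. Most windows were 168 bp wide in Gcr1(U), against 114 bp in Gcr1(S), and the wider window alone would raise the log2 ratio of Gcr1(U) over Gcr1(S) by 0.56 in evenly spread signal. The median shared peak had a ratio of 1.52 (log2 0.60), and per bp of window the median log2 ratio was 0.04. Ratios are therefore given as deposited and also relative to that median, called centred. Bracketed ranges are exact binomial 95% intervals, which cover counting error only and say nothing of the spread between cultures. A stronger signal per bound cell and a larger share of bound cells cannot be told apart in these bulk samples.

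The forms had 163 peaks in common. These were 54.5% of the Gcr1(U) list (48.7 to 60.3%) and 70.0% of the Gcr1(S) list (63.6 to 75.8%). The shared peaks comprised 81 at tRNA genes, 25 on the mitochondrial genome, 16 within 10 kb of a chromosome end, 8 at promoters of glycolytic genes and 33 elsewhere in the nucleus. Over all shared peaks, the interval of the ratio lay above 1 at 92 (56.4%) and below 1 at 52 (31.9%). At least 1.5-fold higher in Gcr1(U) were 83 (50.9%), and at least 1.5-fold lower were 49 (30.1%). Relative to the median, the intervals of 42 peaks (25.8%) were above and of 73 (44.8%) below. These sides followed the kind of site, as the following paragraphs describe.

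Glycolytic promoters carried less Gcr1(U) than Gcr1(S) at every shared peak. All 8 had an interval below 1, with a median ratio of 0.354 and a range of 0.286 to 0.549. Centring lowers every ratio by the same factor, so these intervals lie below 1 on that scale by construction. Tags ran from 413.4 to 1233.4 in Gcr1(U), against 993.3 to 2313.0 in Gcr1(S). The lowest ratio was at ENO2, which encodes the enolase used on glucose, with 477.9 normalized tags in Gcr1(U) against 1670.3 in Gcr1(S) (ratio 0.286, 0.259 to 0.316). Its Gcr1(U) peak spanned chromosome VIII 450784 to 450952 and its Gcr1(S) peak 450814 to 450928, in the sacCer3 build used throughout. TDH3, the main glyceraldehyde-3-phosphate dehydrogenase gene, had 413.4 in Gcr1(U) against 1365.3 in Gcr1(S) (ratio 0.303). PFK2, a subunit of phosphofructokinase, had 718.1 in Gcr1(U) against 2249.4 in Gcr1(S) (ratio 0.319). These 3 genes act at separate steps of the pathway.

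The other glycolytic promoters were nearer to each other in the forms. FBA1, the aldolase gene, had 483.9 normalized tags in Gcr1(U) against 1436.6 in Gcr1(S) (ratio 0.337). PGI1, the phosphoglucose isomerase gene at the entry of the pathway, had 856.7 in Gcr1(U) against 2313.0 in Gcr1(S) (ratio 0.370). GPM1, phosphoglycerate mutase, had 888.1 in Gcr1(U) against 2048.4 in Gcr1(S) (ratio 0.434), and PGK1, phosphoglycerate kinase, had 438.8 in Gcr1(U) against 993.3 in Gcr1(S) (ratio 0.442). The highest ratio was at CDC19, the pyruvate kinase gene at the end of the pathway, with 1233.4 in Gcr1(U) against 2246.9 in Gcr1(S) (ratio 0.549, 0.510 to 0.590). The interval at CDC19, picked as the highest of the 8, overlapped none of the other 7. The order of the 8 promoters by tags was partly kept between the forms (Spearman 0.76 over 8 peaks, a description without replicates). Fold over local background, the peak caller's ratio of a peak to the surrounding region, was lower in Gcr1(U) at all 8 too, with a median of 3.40 in Gcr1(U) against 7.0 in Gcr1(S). At TDH3 it was 2.09 in Gcr1(U), close to 2.01, the lowest fold in that list, and 4.99 in Gcr1(S).

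**Figure D1:**
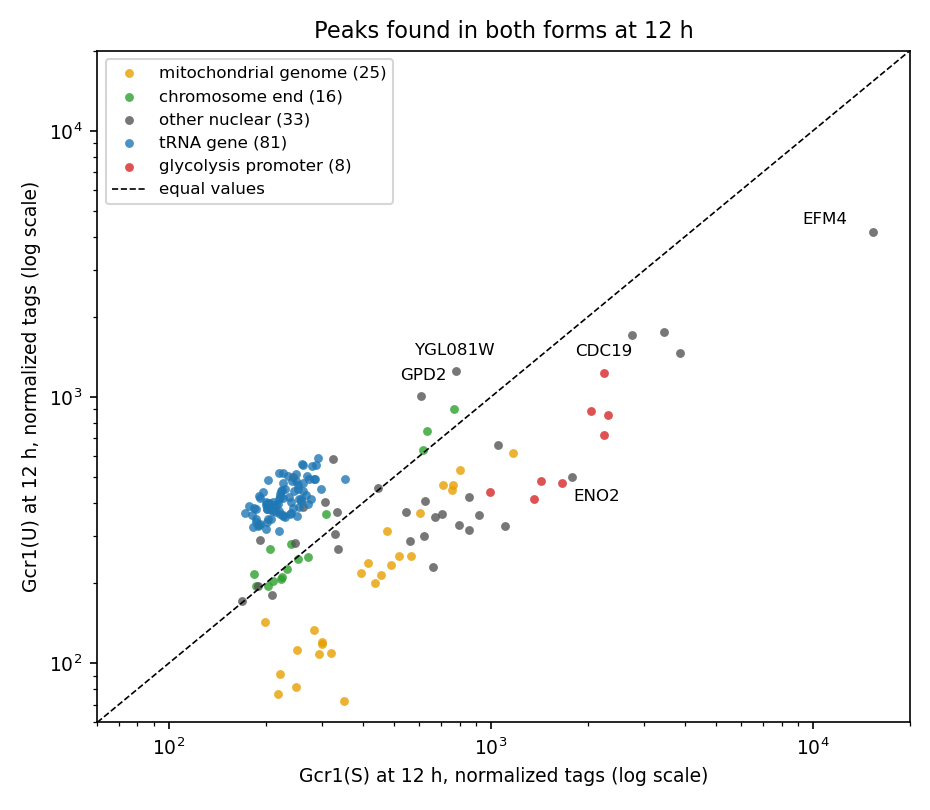
Normalized tags at the 163 shared peaks of 12 h, Gcr1(U) on the vertical and Gcr1(S) on the horizontal axis, both on log scales, 1 point per peak coloured by kind of site, with the dashed line marking equal values. All 8 glycolytic promoters and all 25 mitochondrial peaks lie under the line, and all 81 tRNA gene peaks lie above it.

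Promoters of fermentation and glycerol synthesis, the routes that branch from glycolysis, did not all fall on one side. ADH1, the main alcohol dehydrogenase of fermentation, had 1705.7 normalized tags in Gcr1(U) against 2750.4 in Gcr1(S) (ratio 0.620, 0.582 to 0.661). GPD1, a glycerol-3-phosphate dehydrogenase gene induced by osmotic stress, had 369.6 in Gcr1(U) against 545.6 in Gcr1(S) (ratio 0.677, 0.589 to 0.783). The peak between YIL055C and YIL054W was centred 728 bp upstream of GPP1, a glycerol-3-phosphatase gene, in Gcr1(U). It had 658.9 in Gcr1(U) against 1050.8 in Gcr1(S) (ratio 0.627, 0.566 to 0.696). Those 3 peaks were lower in Gcr1(U), and the remaining one was higher. GPD2, the GPD1 paralog that serves redox balance without oxygen, shared a divergent promoter peak with MAM3 at chromosome XV 216385 to 216553 that had 1006.3 in Gcr1(U) against 609.2 in Gcr1(S) (ratio 1.65, 1.47 to 1.86). The intervals of GPD1 and GPD2 lay far apart. The GPD2 ratio was close to the median of the shared peaks, with a log2 ratio of 0.72 as deposited and 0.16 per bp.

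The 3 highest peaks of the Gcr1(S) list lay at no glycolytic gene and were also lower in Gcr1(U). The first peak of both lists, inside EFM4 and 426 bp upstream of FIS1, a mitochondrial fission gene, had 4157.7 normalized tags in Gcr1(U) against 15418.8 in Gcr1(S) (ratio 0.270, 0.261 to 0.279). A peak inside RAD34, a nucleotide excision repair gene, had 1460.9 in Gcr1(U) against 3859.6 in Gcr1(S) (ratio 0.379). A peak 874 bp upstream of CIS1 in both forms had 1755.1 in Gcr1(U) against 3460.1 in Gcr1(S) (ratio 0.507). Among peaks with fewer tags, low ratios were found inside ATS1 between CCR4 and FUN30 (501.9 in Gcr1(U), 1788.0 in Gcr1(S), ratio 0.281), at FIG1, a mating gene (328.4 in Gcr1(U), 1106.7 in Gcr1(S), ratio 0.297), and at AAH1, the adenine deaminase gene (230.0 in Gcr1(U), 661.6 in Gcr1(S), ratio 0.348). LCB2, GIC2 and RAD3 had ratios of 0.370, 0.391 and 0.414. In all of these the intervals lay below 1. Other high peaks of the Gcr1(U) list went the other way as deposited. YGL081W (rank 5, ratio 1.60), MAM3 and GPD2 (rank 7, ratio 1.65) and YHR219W at a chromosome end (ratio 1.17) had more tags in Gcr1(U). The peak at SCR1 (rank 10) was found in Gcr1(U) alone.

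Over all 33 shared nuclear peaks outside the other classes, the median ratio was 0.651, with 19 intervals below 1, 7 above and 7 spanning it. Centred, 26 were below and 2 above. GCR1 itself had a promoter peak in both forms, at chromosome XVI 412003 to 412171 in Gcr1(U) and 412045 to 412159 in Gcr1(S), with 301.6 normalized tags in Gcr1(U) against 622.1 in Gcr1(S) (ratio 0.485, 0.421 to 0.560). This is the locus altered in both strains. SNF1, the kinase that relieves glucose repression, had 287.8 in Gcr1(U) against 561.9 in Gcr1(S) (ratio 0.512), with the peak centre inside the gene, 56 bp past its start codon in Gcr1(U). SDH1, a succinate dehydrogenase subunit of the TCA cycle, had 365.4 in Gcr1(U) against 706.3 in Gcr1(S) (ratio 0.517), and RCF2, a respiratory supercomplex factor, had 422.9 in Gcr1(U) against 855.8 in Gcr1(S) (ratio 0.494). SNF1, SDH1 and RCF2 were thus on the same side as the glycolytic promoters.

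A smaller number of peaks in that class had more tags in Gcr1(U). The uncharacterized gene YGL081W had 1248.9 normalized tags in Gcr1(U) against 778.5 in Gcr1(S) (ratio 1.60, 1.45 to 1.78), with the peak inside the neighbouring MIY3. Among genes for ribosomal proteins, RPS24A had 404.6 in Gcr1(U) against 305.9 in Gcr1(S) (ratio 1.32, 1.12 to 1.58), RPS19B had 385.2 in Gcr1(U) against 261.2 in Gcr1(S) (ratio 1.47), and RPL1B had 290.3 in Gcr1(U) against 191.6 in Gcr1(S) (ratio 1.52). RPL42B, with 305.1 in Gcr1(U) against 328.2 in Gcr1(S), had an interval that spanned 1 (0.783 to 1.11). Per bp, the log2 ratios of RPS24A, RPS19B and RPL1B were -0.16, 0.0010 and 0.040, so RPS24A turned below 0 on that scale and the others came close to 0. The largest ratios outside tRNA genes were by SNR52 and at RPR1, other genes of RNA polymerase III. The peak by SNR52, a small nucleolar RNA gene near PMD1, had 500.1 in Gcr1(U) against 244.0 in Gcr1(S) (ratio 2.05, 1.71 to 2.47). It lay 6 bp from the gene in Gcr1(U) and 73 bp from it in Gcr1(S). RPR1, the RNA of RNase P, was overlapped by its peaks and had 585.1 in Gcr1(U) against 323.9 in Gcr1(S) (ratio 1.81, 1.54 to 2.13).

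At shared peaks, the tRNA genes, transcribed by RNA polymerase III, stood on the other side from glycolysis in their tags. By number of peaks, the Gcr1(U) list held 98 at tRNA genes (32.8%) against 118 in the Gcr1(S) list (50.6%). Of these, 17 were of Gcr1(U) alone and 37 of Gcr1(S) alone. All 81 shared tRNA gene peaks had more tags in Gcr1(U), and all 81 intervals lay above 1. The ratio had a median of 1.83 and ran from 1.40 to 2.41, and 77 were at least 1.5-fold higher. Tags ran from 314.3 to 590.1 with a median of 405.3 in Gcr1(U), and from 172.7 to 352.3 with a median of 224.3 in Gcr1(S), a narrow band in each form. The excess was smaller on the other scales, with a median log2 ratio of 0.87 as deposited, 0.31 per bp and 0.27 centred. Centred, 40 of the intervals lay above 1, 41 spanned it and 0 lay below. The centring value is the median of all 163 shared peaks, of which these 81 are part, so it partly follows the tRNA genes themselves. Fold over local background was low in both forms, with a median of 2.82 in Gcr1(U) against 2.43 in Gcr1(S), and was higher in Gcr1(U) at 68 of 81 and lower at 11.

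Among themselves the tRNA genes differed little between the forms. The highest ratio was at the tRNA gene by VMA3, chromosome V 100079 to 100247, with 488.5 normalized tags in Gcr1(U) against 202.8 in Gcr1(S) (ratio 2.41, 1.98 to 2.95). The tRNA gene by HIT1 had 520.9 in Gcr1(U) against 220.0 in Gcr1(S) (ratio 2.37), and the one between ATG31 and SES1, the seryl-tRNA synthetase gene, had 519.5 in Gcr1(U) against 226.0 in Gcr1(S) (ratio 2.30). The lowest ratio was at the tRNA gene by MEF2, chromosome X 233872 to 234040, with 492.7 in Gcr1(U) against 352.3 in Gcr1(S) (ratio 1.40, 1.19 to 1.64). The tRNA genes by NPR3 and MCD4 followed with ratios of 1.43 each. The intervals of the highest and the lowest ratio did not overlap. They are the extremes picked from 81 ratios, so this is no test of a difference between tRNA genes. Some genes of the lists were assigned a peak that overlaps a tRNA gene. RPL26A, a ribosomal protein gene, had 504.0 in Gcr1(U) against 268.9 in Gcr1(S) (ratio 1.87), and ATP1, CIT1 and PGM1, for a subunit of ATP synthase, citrate synthase and phosphoglucomutase, had ratios of 2.00, 1.94 and 1.87, all inside the range of the tRNA genes.

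**Figure D2:**
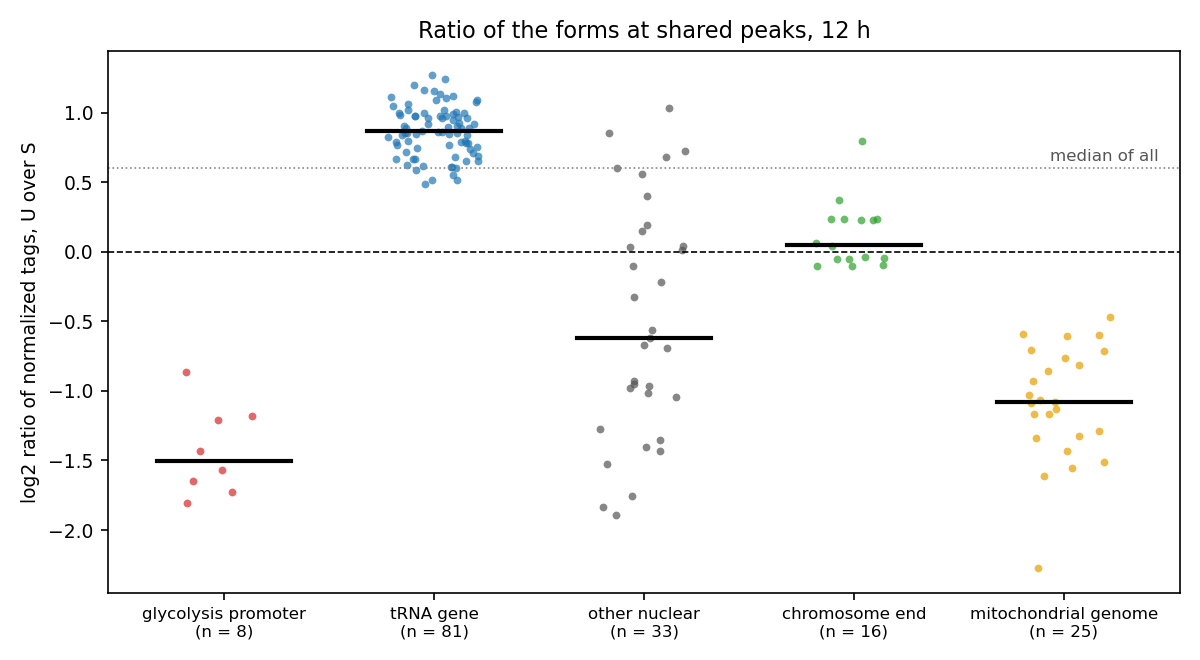
Log2 ratio of normalized tags, Gcr1(U) over Gcr1(S), at the 163 shared peaks of 12 h by kind of site, 1 point per peak, with the median of each kind as a bar, the dashed line at equal values and the dotted line at the median of all shared peaks. Medians stand at -1.50 for glycolytic promoters, 0.87 for tRNA genes, -0.62 for other nuclear peaks, 0.05 for chromosome ends and -1.08 for the mitochondrial genome.

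Chromosome ends and the mitochondrial genome gave directions that turned with the scale. At the 16 shared peaks by chromosome ends, the median ratio was 1.04, with 4 intervals above 1, 12 spanning it and 0 below, whereas the median log2 ratio was -0.51 per bp, -0.55 centred and -0.37 by fold over local background. The highest ratio was upstream of YRF1-5, a subtelomeric helicase gene, with 331.2 normalized tags in Gcr1(U) against 190.7 in Gcr1(S) (ratio 1.74, 1.41 to 2.16), and the lowest was by PAU19 (251.8 in Gcr1(U), 270.7 in Gcr1(S), ratio 0.930, 0.767 to 1.13). All 25 shared mitochondrial peaks had fewer tags in Gcr1(U), from 72.3 to 615.5, than in Gcr1(S), from 198.5 to 1169.4. Their median ratio was 0.473, with the lowest, 0.207, inside COB, the cytochrome b gene. Fold over local background ran the other way there, with a median of 5.20 in Gcr1(U) against 3.68 in Gcr1(S), and was higher in Gcr1(U) at 22 of 25. The signal of these sites in an untagged strain was not tested. Copies of subtelomeric and repeated genes share sequence, so reads there may be split between copies.

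The focus ratio, the fraction of a peak's tags that lie on the side of its centre where reads of their strand should fall, describes how sharply the signal is centred. Over all shared peaks the medians were close, with 0.690 in Gcr1(U) against 0.688 in Gcr1(S) and a median difference of 0.0020. It was higher in Gcr1(U) at 87 peaks, lower at 73 and equal at 3. By kind of site the forms differed. Glycolytic promoters had a median of 0.759 in Gcr1(U) against 0.840 in Gcr1(S) and were lower in Gcr1(U) at 7 of 8. The exception was CDC19, with 0.841 in Gcr1(U) against 0.839 in Gcr1(S). The largest drop among glycolytic promoters was at ENO2 (0.731 in Gcr1(U), 0.875 in Gcr1(S)), followed by TDH3 (0.644 in Gcr1(U), 0.778 in Gcr1(S)) and FBA1 (0.680 in Gcr1(U), 0.806 in Gcr1(S)).

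Other nuclear peaks went the same way as glycolysis, with a median focus ratio of 0.657 in Gcr1(U) against 0.730 in Gcr1(S), lower in Gcr1(U) at 24 of 33, higher at 8 and equal at 1. The largest drop of all was at AAH1 (0.667 in Gcr1(U), 0.851 in Gcr1(S)), and the next at GIC2, a Cdc42 effector gene (0.617 in Gcr1(U), 0.766 in Gcr1(S)). The GCR1 promoter had 0.677 in Gcr1(U) against 0.797 in Gcr1(S). At tRNA genes the medians were 0.683 in Gcr1(U) against 0.672 in Gcr1(S), higher in Gcr1(U) at 51, lower at 28 and equal at 2. The mitochondrial peaks had 0.826 in Gcr1(U) against 0.766 in Gcr1(S) and were higher in Gcr1(U) at 21 of 25. Over the 138 shared nuclear peaks, those with lower ratios of tags also had lower focus ratios in Gcr1(U) relative to Gcr1(S) (Spearman 0.65, and 0.73 within the 33 other nuclear peaks). Both measures come from the same tags, and the focus ratio is taken over windows of different width in the lists, whose part in these differences was not tested.

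**Figure D3:**
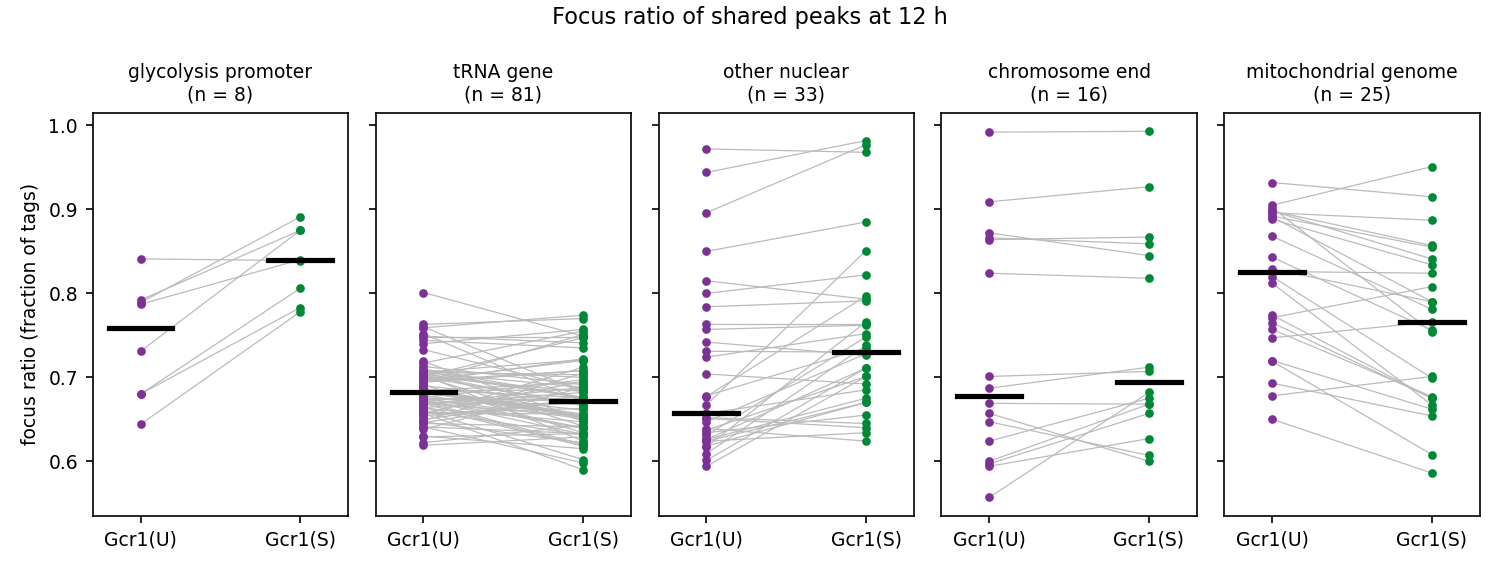
Focus ratio (a fraction) of the shared peaks at 12 h, Gcr1(U) on the left and Gcr1(S) on the right of each panel, with a grey line joining the values of 1 peak and black bars at the medians. Most lines climb from Gcr1(U) to Gcr1(S) at glycolytic promoters and other nuclear peaks, and most descend on the mitochondrial genome.

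Peak centres were close between the forms. The median distance was 15 bp, with quartiles of 7 and 31 bp and a maximum of 115 bp, and 140 of the 163 centres lay within 50 bp. Other nuclear peaks were the closest, with a median of 6 bp and 22 of 33 within 10 bp (66.7%, against 40.5% of all shared peaks). The peaks at EFM4, RAD34, CIS1, ADH1 and PFK2 had a distance of 0 bp. At glycolytic promoters the median distance was 23.5 bp and the maximum 37 bp, at CDC19, where the centre lay 641 bp upstream of the ATG in Gcr1(U) against 604 bp in Gcr1(S). At ENO2 the centres lay 459 bp upstream in Gcr1(U) against 456 bp in Gcr1(S), and at PGI1 348 bp in Gcr1(U) against 349 bp in Gcr1(S). The GCR1 centres lay 167 bp upstream in Gcr1(U) against 152 bp in Gcr1(S). The largest distances of all, 115 bp by PAU16 and 112 bp at YOL166W-A, were at chromosome ends where the Gcr1(S) window begins at the first base of the chromosome.

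At tRNA genes the centres could be placed along the direction of transcription, and every shared peak overlapped its tRNA gene in both forms. Gcr1(U) centres lay a median of 36 bp past the 5′ end of the tRNA gene (quartiles 25 and 46), against 46 bp for Gcr1(S) (quartiles 35 and 64). Relative to the middle of the gene, the medians were 0 bp in Gcr1(U) and 9.5 bp downstream in Gcr1(S). The Gcr1(U) centre was upstream of the Gcr1(S) centre at 57 of the 81 genes and downstream at 24, with a median difference of -11 bp. The centre lay inside the tRNA gene at 76 in Gcr1(U) and at 66 in Gcr1(S). The widths of the windows and the depths of the libraries differ between the forms, and their part in this shift was not tested.

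**Figure D4:**
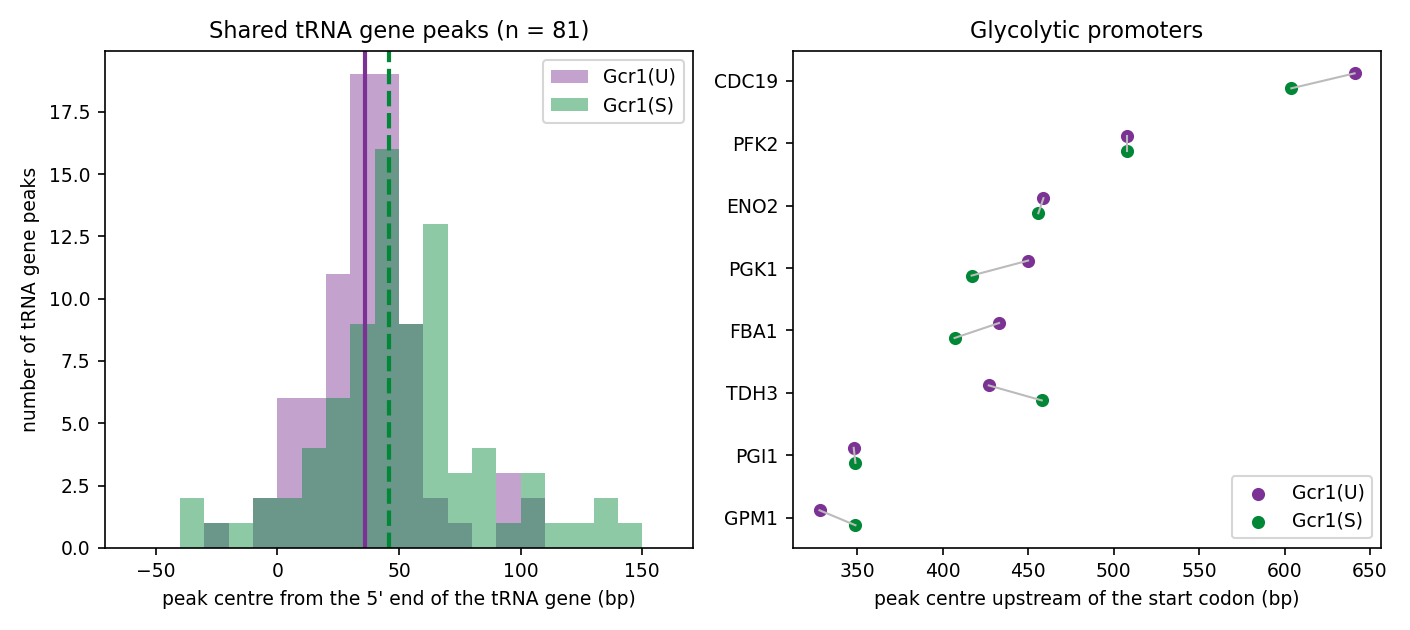
Left, histogram of peak centres from the 5′ end of the tRNA gene in bp, along the direction of transcription, for the 81 shared tRNA gene peaks of Gcr1(U) and Gcr1(S), with vertical lines at the medians, 36 bp in Gcr1(U) and 46 bp in Gcr1(S). Right, distance of the peak centre upstream of the start codon in bp for the 8 glycolytic promoters, with Gcr1(U) drawn above Gcr1(S); the centres of 1 gene are at most 37 bp apart.

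Gcr1(U) had 136 peaks that overlapped none of Gcr1(S). They comprised 71 other nuclear peaks, 45 by chromosome ends, 17 at tRNA genes, 2 on the mitochondrial genome and 1 at the rDNA. Of these, 100 had fewer than 169.3 normalized tags, the lowest value listed for Gcr1(S), so most lie in a range that the shallower Gcr1(S) list does not reach. The highest was at SCR1, the signal recognition particle RNA gene, which RNA polymerase III transcribes, at chromosome V 442045 to 442213, with 876.1 normalized tags and a fold of 2.04 over local background. The next 7 by tags, from 472.3 by MCM3 to 415.8 by FYV6 and KRE33, were all at tRNA genes. The tRNA gene between CTK2 and CYR1, the adenylate cyclase gene, had 424.7, and the one by PHO4, the phosphate regulator, had 429.6. All 17 tRNA gene peaks of Gcr1(U) alone were above the lowest value listed for Gcr1(S), with 278.3 to 472.3 tags. At shared tRNA gene peaks, however, the median ratio of Gcr1(U) over Gcr1(S) was 1.83. The 17 had a median fold of 2.61 over local background, and the lowest fold in the Gcr1(S) list was 2.00. Their absence from that list therefore does not show that Gcr1(S) was absent from these places.

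Outside tRNA and SCR1, the peaks of Gcr1(U) alone had few tags, with a median of 130.1 in the other nuclear class. Of the 71 peaks of that class, 37 had their centre from 1000 bp upstream to 200 bp downstream of a start codon. In the same class, 47 lay inside a coding region, and a peak can be both. The highest were inside RPL8A (371.0 normalized tags), upstream of RPL2A (359.4), inside ENO2 (346.4), inside GRS2, a glycyl-tRNA synthetase gene (303.7), and at the divergent promoter of RPL11A and PRE2 (294.5). The ENO2 peak, at chromosome VIII 451472 to 451640, lies apart from the promoter peak of the same gene. Peaks of Gcr1(U) alone in several multigene families, singled out after their values were seen, are given as counts, with no test. The Hsp70 chaperone genes SSA1, SSA2, SSB1 and SSB2 held 7 with 103.7 to 235.6 tags, flocculin (FLO) genes 8 with 69.8 to 155.2, seripauperin (PAU) genes 8 with 78.3 to 159.8, hexose transporter (HXT) genes 6 with 72.3 to 142.8 and COS genes 5 with 75.5 to 157.0. Gcr1(S) alone held 0 peaks in each of these families, but Gcr1(S) shared 1 peak at SSA1 and 1 at FLO5 with Gcr1(U). YRF1 genes held 3 peaks of Gcr1(U) alone and 3 shared peaks, and MST genes held 3 of Gcr1(U) alone. The shared chromosome end peaks by PAU8, PAU16 and PAU19 were not counted in the PAU family. The peaks of Gcr1(U) alone in the FLO, PAU, HXT and COS families all had fewer tags than the weakest Gcr1(S) peak. Those in the Hsp70 genes reached above it. Members of these families have similar sequences, and the placement of reads that match several copies is not given in the sources.

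Gcr1(S) had 70 peaks that overlapped none of Gcr1(U), 37 at tRNA genes, 31 other nuclear, 1 glycolytic and 1 mitochondrial, with 0 at chromosome ends, where all 16 of its peaks were shared. The highest was at BMH1, a 14-3-3 protein gene, at chromosome V 545234 to 545348, with 1495.9 normalized tags, the 11th highest of 233. The glycolytic one was TPI1, triose phosphate isomerase, at chromosome IV 556759 to 556873, 344 bp upstream of the start codon, with 906.5 tags, a focus ratio of 0.812 and a fold of 4.80 over local background. BST1, a gene of GPI anchor processing, had 761.3, and the peaks nearest to ERG29 and TAF14 had 754.4 and 750.1. The divergent promoter of TGL5 and WHI5, the repressor of cell cycle start, had 677.1. SOD2, mitochondrial superoxide dismutase, had 659.0 and GPR1, the glucose receptor of the cAMP pathway, had 653.9. The peak nearest to KAR4 had 627.2, and FUN26 had 604.9. PDC1, the main pyruvate decarboxylase, had 538.7 and a centre 601 bp upstream. Of the 31 other nuclear peaks of Gcr1(S) alone, 18 were upstream of a gene and 13 inside a coding region.

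The tRNA gene peaks of Gcr1(S) alone were weak, with a median of 205.4 normalized tags and a median fold of 2.12 over local background, near 2.00, the lowest fold in its list. The exception was the tRNA gene by AIM25 and RSM26, with 515.5 tags and a fold of 4.05. The 31 other nuclear peaks had a median of 415.9 tags and a fold of 3.79. No Gcr1(U) value exists for a peak that is not in its list. If their fold over local background were lower in Gcr1(U) by 0.680, the median ratio at shared other nuclear peaks, 11 of the 31 would be under 2.01, the lowest fold listed for Gcr1(U). At 0.257, the lowest ratio at a shared peak, all 31 would be. Their absence from the Gcr1(U) list therefore does not show that Gcr1(U) was absent from these places.

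**Figure D5:**
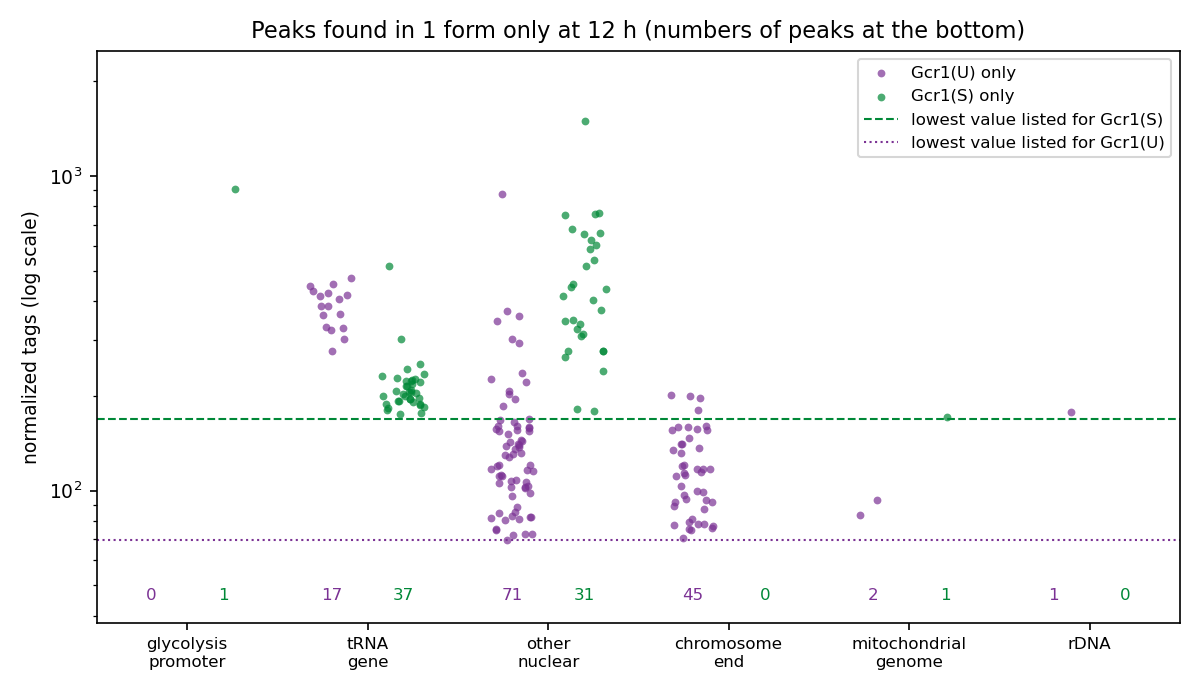
Normalized tags (log scale) of the peaks found in 1 form only at 12 h by kind of site, Gcr1(U) left and Gcr1(S) right within each kind, with numbers of peaks at the bottom and lines at the lowest value listed for each form, 169.3 in Gcr1(S) and 69.8 in Gcr1(U). Most Gcr1(U) points outside tRNA genes lie under the Gcr1(S) line, and the other nuclear Gcr1(S) points reach 1495.9.

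By gene, 207 of 6002 nuclear protein-coding genes (3.45%) had a Gcr1(U) peak between 1000 bp upstream and 200 bp downstream of the start codon, and 185 (3.08%) had a Gcr1(S) peak. Of 17 glycolytic genes, 8 had a Gcr1(U) peak and 9 a Gcr1(S) peak, and of 4 glycerol synthesis genes 3 had one in each form. Of 8 fermentation genes, 1 had a Gcr1(U) peak and 2 a Gcr1(S) peak. Ribosomal protein genes had 7 of 137 in each form, 5 of them in both. Of 24 genes of growth and glucose signalling, 2 had a Gcr1(U) peak (SNF1 and CYR1) and 4 a Gcr1(S) peak (SNF1, BMH1, GPR1 and WHI5). Of 20 heat shock and chaperone genes, 3 had a Gcr1(U) peak and 1 a Gcr1(S) peak, and of 19 hexose transport genes 2 had a Gcr1(U) peak and 0 a Gcr1(S) peak. The TCA cycle had 2 of 17 in each form. The list of nuclear respiratory chain and ATP synthase genes had 1 of 36 in Gcr1(U), ATP1, and 2 of 36 in Gcr1(S). Those were ATP1 and the superoxide dismutase gene SOD2, and the ATP1 peak overlaps a tRNA gene in both forms. Of 15 genes for gluconeogenesis, the glyoxylate cycle and growth on ethanol or acetate, the routes in use after the diauxic shift, 0 had a peak in either form. Of 12 RNA polymerase III genes other than tRNA genes, 4 had a Gcr1(U) peak (RPR1, SNR52, SCR1 and the 5S gene RDN5-6, which had 178.1 tags). A Gcr1(S) peak was found for 3 (RPR1, SNR52 and SNR6, the U6 spliceosomal RNA, which had 265.5 tags). The SNR52 peaks lay beside the gene in both forms, and the others overlapped their genes.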

How the data were processed

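Per the labels, Gcr1-TAP was recovered on IgG-sepharose, libraries were made with the ThruPLEX kit and 15 cycles of PCR, and 1 end was read for 50 cycles. The submitters' processing notes name sacCer3, HOMER, bedtools, BWA 0.7.15, Picard 2.92, FastQC 0.10.1 and bcl2fastq 1.8.2, with no role or order. The 4 lists are output of HOMER's findPeaks, per the file headers. The deposited signal is the normalized tag count, the deposited fraction is the focus ratio, and the authors' peak caller gave the fold over local background and its p-value. The findPeaks score deposited by the authors was used only to rank peaks for an alternative. The replicates of a group have no separate columns, and how they were combined is not given in the sources.

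In each form the lists of both times hold the same number of peaks, so the set of places at 12 h is not independent of that at 6 h. Tags per unit were derived from the spacing of the values (steps of 0.5 tags). In Gcr1(U), 97.0% of the values fell on the grid, where chance would place 28.9%, and in Gcr1(S) 99.6%, where chance would place 11.9%. With a scale of 10000000 tags, HOMER's default and assumed here, these factors also give the depths. Intervals are exact binomial 95% intervals on the derived counts, which cover counting error only, since reads amplified by PCR and lacking molecular identifiers are not independent. No p-value was computed across peaks, which are not replicates. The interval and matching steps were tested on simulated data.

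Each peak was put in 1 class, in this order: mitochondrial genome, tRNA gene (at most 500 bp away), rDNA, chromosome end (at most 10 kb away), glycolytic promoter, other nuclear. Genes came from the RefSeq table of R64 (6002 nuclear protein-coding and 275 tRNA genes), and the end of a chromosome was put at its last gene or peak. No sequence was read. Named genes are the list members with a peak, the highest peaks of each list, those with the highest and lowest ratios overall and by class, the highest peaks of 1 form, and those with the largest differences in focus ratio or position. The members and lists were chosen with earlier results of these data known. Alternatives were other overlaps, scalings, class limits and peak filters. Python 3.11.15, numpy 2.4.6, pandas 2.3.3, scipy 1.17.1 and matplotlib 3.10.9 were used.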

Additional observations from a re-analysis of the deposited data

Results flagged for a closer look

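The same places at 6 h stood on another side of 1 in several kinds of site, and the difference between the times was not tested because there is 1 pooled list per form and time. At 79 of the 81 shared tRNA gene peaks, the interval of the ratio of Gcr1(U) over Gcr1(S) was below 1 at 6 h and above 1 at 12 h. At 6 of the 8 glycolytic promoters it was above 1 at 6 h and below 1 at 12 h. ENO2 had a ratio of 1.58 at 6 h and 0.286 at 12 h, and FBA1 had 2.11 at 6 h and 0.337 at 12 h. All 25 mitochondrial peaks were above 1 at 6 h and below 1 at 12 h. Over all 163 shared peaks, 85 went from below 1 to above it and 35 from above 1 to below it. These sides are those of the ratios as deposited, and the ratios at 6 h were not centred. Centred, 40 of the 81 tRNA gene intervals lay above 1 at 12 h and 41 spanned it.

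Among other nuclear peaks, 4 were above 1 at 6 h and below it at 12 h, and 4 were below 1 at 6 h and above it at 12 h. The first 4 were ADH1 (2.14 at 6 h, 0.620 at 12 h), GPD1 (1.51 at 6 h, 0.677 at 12 h), SDH1 (1.28 at 6 h, 0.517 at 12 h) and GPP1 (1.18 at 6 h, 0.627 at 12 h). The other 4 were GPD2 (0.682 at 6 h, 1.65 at 12 h), SNR52 (0.598 at 6 h, 2.05 at 12 h), RPR1 (0.811 at 6 h, 1.81 at 12 h) and RPS24A (0.856 at 6 h, 1.32 at 12 h). GPD1 and GPD2 thus exchanged sides in the ratios as deposited. Centred, 2 of the 33 other nuclear intervals lay above 1 at 12 h, and GPD2 and RPS24A were not among them. Over all shared peaks the median log2 ratio was -0.35 at 6 h and 0.60 at 12 h, and tRNA genes make up 81 of the 163 peaks behind it. The medians by kind of site did not move together. They were 0.50 at 6 h and -1.50 at 12 h at glycolytic promoters, -0.50 at 6 h and 0.87 at 12 h at tRNA genes, and -0.04 at 6 h and 0.05 at 12 h at chromosome ends.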

How the results depend on the processing

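Of 70 alternatives to 22 results, 40 left the result within its range or within 1.5 times its count, 29 moved it and 1 reversed it. The reversal was the mitochondrial median, -1.08 as the log2 ratio of tags and 0.37 by fold over local background. Centred on the median of the shared peaks, the medians were -2.10 at glycolytic promoters, 0.27 at tRNA genes, -1.22 at other nuclear peaks, -0.55 at chromosome ends and -1.68 on the mitochondrial genome, and 42 intervals lay above 1. Per bp of window they were -2.06, 0.31, -1.18, -0.51 and -1.64 in the same order, 0.040 over all shared peaks, and 50 intervals lay above 1. By fold over local background the median was 0.12 over all, 0.20 at tRNA genes and -0.37 at chromosome ends. In the upper 50% of each list by score, 67 peaks were shared (44.7% of Gcr1(U) peaks and 57.3% of Gcr1(S) peaks), 83 were in Gcr1(U) alone, the median log2 ratio was 0.034, the median focus difference at chromosome ends was 0.011 and the median distance was 10 bp. With centres within 50 bp, 46.8% of the Gcr1(U) list and 60.1% of the Gcr1(S) list were shared. With at least 300 normalized tags in both forms (43 peaks, of which 1 was at a tRNA gene), the median focus difference was -0.028 and the median distance 8 bp. With genes assigned within 500 bp of the start, an alternative chosen after seeing the data, 124 genes had a Gcr1(U) peak and 106 a Gcr1(S) peak. No paired analysis was possible because each list pools the replicates of a group, and for the same reason leaving out each replicate was not run. Counting error and the lowest value of each list limit what can be said of weak peaks, above all in Gcr1(S).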

Other observations

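Some peaks of both forms had a very high fold over local background without many tags. The peak 5 bp upstream of YHR054C in Gcr1(U), at chromosome VIII 214170 to 214338, had 268.8 normalized tags and a fold of 138.77 in Gcr1(U), against 336.0 tags and a fold of 217.06 in Gcr1(S). The focus ratio there was 0.972 in Gcr1(U) against 0.968 in Gcr1(S). A weak peak of Gcr1(S) alone with 178.7 tags was nearest to TDH3, at chromosome VII 882591 to 882705, apart from the promoter peak of that gene.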
